A study of Gallus gallus with 12 samples.

Results

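A set of 82 chicken genes kept a transcript level of at least 1 in the red blood cells of both the adult hen and the embryo, while primary fibroblasts held at least as much of each as embryonic red blood cells did. They were selected on their mean levels in adult RBC, embryonic RBC and fibroblasts, out of 13889 genes listed in any of 4 tables, 1 per cell type. A gene entered if the mean of its 3 replicates was at least 1 scaled FPKM in adult and in embryonic red blood cells and if its fibroblast mean was at or above its embryonic mean. FPKM is the number of fragments on a gene divided by the gene's length and by the size of the library, and the authors scaled it further to cell number. Of 166 genes at or above 1 in adult red blood cells and 371 in embryonic ones, 92 reached 1 in both. Fibroblasts did not list 2 of those 92, and 8 had a fibroblast mean below the embryonic mean, which leaves the 82 described here.

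Stranded libraries of total RNA, made after ribosomal RNA had been removed, came from 4 kinds of wild-type chicken cells with 3 replicates each. The groups were adult RBC, red blood cells of hens aged 28 to 38 weeks; embryonic RBC, primary red blood cells at embryonic day 10; HD3, a cultured line of chicken erythroblasts, which are dividing precursors of red blood cells; and primary fibroblasts, a connective tissue cell outside that lineage. HD3 cells and fibroblasts had grown in the same medium, with fetal bovine and chicken serum, whereas the red blood cells are labelled as primary cells. HD3 is a single line, and the labels do not say whether replicates came from separate animals or cultures, so p-values measure only the spread between these samples. The red cell groups are whole samples without a named sort, and the erythroid, fibroblast, thrombocyte and leukocyte markers could not be looked up, because the files give Ensembl IDs without names and none of the 82 IDs stood in the RefSeq gene table. The label of each cell type was therefore not checked against its markers, and no role can be given for any of the 82 genes.

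Bird red blood cells keep their nucleus for life. As they mature they shut down most transcription, condense their chromatin and divide no more, and the RNA left in a circulating cell is a mixture of globin and other red cell transcripts with stable RNAs made earlier or by genes that stay active. Libraries of total RNA hold transcripts with and without a poly(A) tail, and so they include the short non-coding RNAs of splicing, ribosome making and protein export, which a poly(A) library mostly leaves out. The title of the series names pausing of RNA polymerase II and chromatin organization in erythrocytes. The 82 genes are those with a mean of at least 1 at both red cell stages that was not higher in the embryonic cells than in fibroblasts. Many more were counted, as 481 genes were listed at both red cell stages.

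The thresholds cut through a continuous range of levels. The 3 genes just inside the adult threshold had means of 1.00, 1.01 and 1.02 scaled FPKM, and the 3 just outside had 0.998, 0.995 and 0.989, with 124 genes that met the other conditions but stayed under 1. The 3 just inside the embryonic threshold had 1.01, 1.03 and 1.05, and the 3 just outside had 0.935, 0.914 and 0.898, out of 24 such genes. The ratio of the fibroblast to the embryonic mean was 1.09, 2.30 and 2.81 in the 3 genes nearest above equality and 0.888, 0.843 and 0.775 in the 3 nearest below. A minimum of 0.5 in place of 1 would have given 218 genes, a minimum of 2 would have given 39, and a minimum of 1 in every replicate would have given 45.

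Some libraries stood apart within their group for these genes. The genes fell into a short and a long class by length, described further on, and in embryonic replicate 1 the level of 32 of the 33 short genes was the highest of the 3 replicates, with a median ratio of 2.02 to the mean of the other replicates. In HD3 replicate 1 the level of 31 of 33 short genes was the lowest, with a median ratio of 0.347. In adult replicate 3 the short genes had a median ratio of 1.43, and 8 of them had over 66.7% of their summed adult value there. Fibroblast replicate 3 had the same median ratio of 1.43, and 19 of 33 short genes were highest there. The reads that a library had on its listed genes, worked out from the FPKM steps, came to 5363928, 9541884 and 2916238 in adult replicates 1 to 3, 6454399, 17808129 and 16131108 in embryonic ones, 9051864, 19081770 and 19379238 in HD3 and 8853457, 23384876 and 18979332 in fibroblasts, so HD3 replicate 1, embryonic replicate 1 and adult replicate 3 were also the shallowest of their groups. Fibroblast replicate 3 was not, as replicate 1 was the shallowest in that group. The least covered of the 82 genes still had at least 43 reads in each red cell library and 11 in HD3 replicate 1.

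The median level over the 82 genes was lowest in adult RBC and highest in fibroblasts, though 32 of the 82 had a higher mean in adult than in embryonic RBC. Their median was 2.25 ± 0.189 scaled FPKM in adult RBC, 4.77 ± 0.699 in embryonic RBC, 50.5 ± 14.7 in HD3 and 196 ± 33.2 in fibroblasts (mean and SD of the medians of 3 replicates). The medians over every gene a table listed were 0.510, 0.540, 2.55 and 8.90 in the same order of cell types. In these bulk samples, a smaller part of cells of a type within a sample and less RNA per cell cannot be told apart. The levels also rest on the cell-number scaling, whose factor is not given. The levels in both red cell types and in fibroblasts chose the genes and are a description, whereas the HD3 values played no part in the choice.

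**Figure D1:**
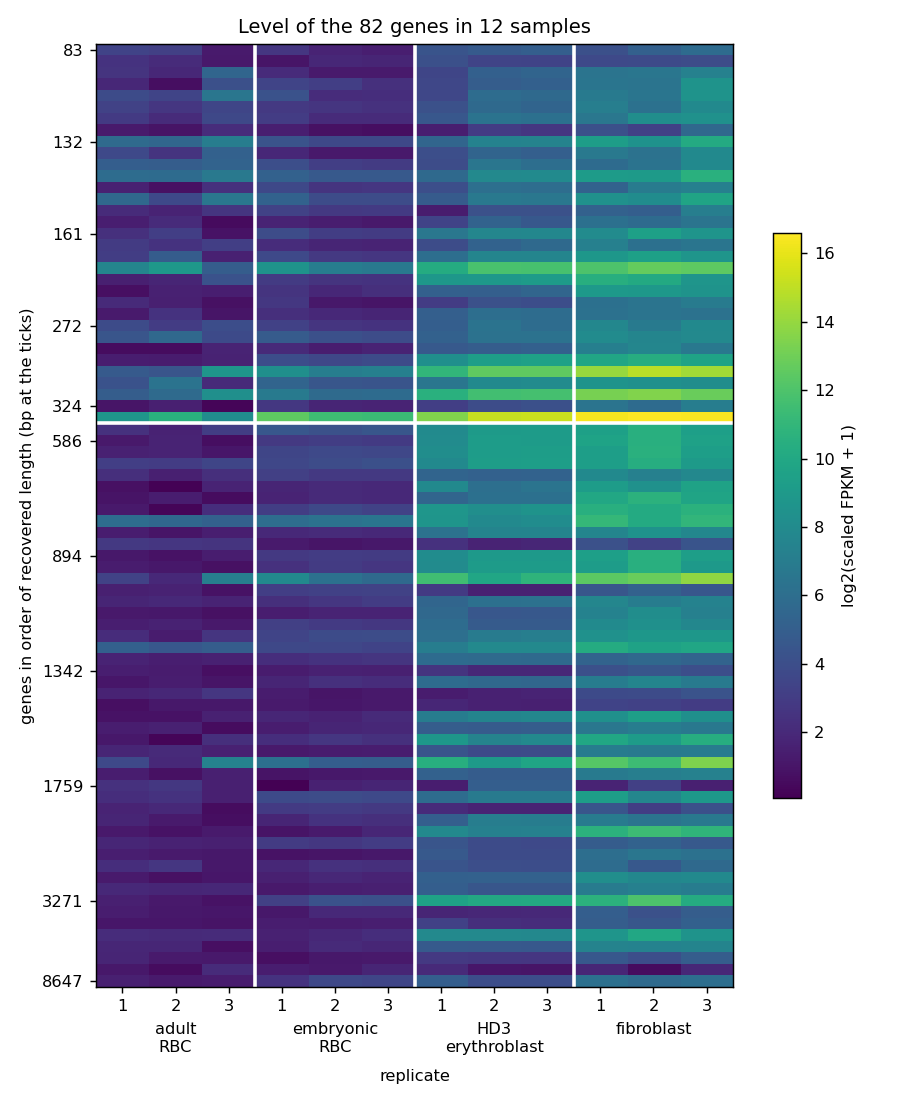
Level of the 82 genes in each of the 12 samples, as log2(scaled FPKM + 1) by colour, with adult RBC, embryonic RBC, HD3 and fibroblasts from left to right and the genes from short at the top to long at the bottom; the horizontal white line parts the 33 genes of 83 to 329 bp from the 49 of 527 to 8647 bp. The gene of 329 bp has the highest mean in each of the 4 cell types, and the median of the gene means in adult RBC is 7.47 for the short and 1.69 for the long genes.

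All 82 genes were listed in HD3 erythroblasts, which the choice did not require. Most genes of the red cells were, at 1318 of the 1354 listed in embryonic RBC and 760 of the 804 listed in adult RBC. In HD3 they took 8 of the 10 highest places of 10303, 18 of the highest 50, 29 of the highest 100 and 62 of the highest 500. Their median rank there was 174.0, and 79 of 82 lay above the median of the table. In adult RBC they held 8 of the 10 highest places of 804, in embryonic RBC 5 of the 10 highest of 1354 and in fibroblasts 6 of the 10 highest of 13451. The places in HD3 are not free of the choice, since all 82 genes lay above the median of both red cell tables. Over the 462 genes in all 4 tables, levels in embryonic RBC and HD3 had a Pearson r of 0.612. The places are therefore a description. Across the 82 genes the mean log2 levels in HD3 and fibroblasts had a Pearson r of 0.938 and a Spearman rho of 0.929, those in adult and embryonic RBC an r of 0.802 and a rho of 0.565, and those in adult RBC and HD3 an r of 0.563 and a rho of 0.329. For the 462 genes in all 4 tables the corresponding r was 0.836, 0.752 and 0.424. Genes of 1 library share its depth and its scaling, so these correlations are descriptions over genes and carry no test.

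The order of the 4 means was most often fibroblast over HD3 over embryonic over adult RBC, which 46 genes showed, 12 short and 34 long. In 29 genes the order was fibroblast over HD3 over adult over embryonic RBC, and 21 of those were short and 8 long. The other 7 genes, all long, departed from the usual place of HD3. In 3 of them embryonic RBC and in 2 adult RBC stood between fibroblasts and HD3, and in the last 2 HD3 stood above fibroblasts. The choice itself put fibroblasts at or above embryonic RBC, so that part of each order is no result. The orders also rest on the cell-number scaling. As shares of the sum over genes in all 4 tables, 53 of the 82 were higher in adult RBC than in fibroblasts. Of the 380 other genes 211 were. Orders were not counted for other genes, so these counts are a description.

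The 82 genes held a large part of the summed scaled FPKM, and over all listed genes the largest part in adult RBC. Their share of the summed scaled FPKM, which any factor common to a sample leaves as it is, was 60.2%, 78.9% and 75.8% in the adult replicates, 40.4%, 27.1% and 25.0% in the embryonic ones, 29.5%, 47.2% and 49.0% in HD3 and 31.3%, 33.5% and 35.4% in fibroblasts. The adult samples lay above all others without overlap, and the embryonic samples overlapped with HD3 and fibroblasts. The means were 71.6% ± 10.0 in adult RBC, 30.8% ± 8.34 in embryonic RBC, 41.9% ± 10.7 in HD3 and 33.4% ± 2.04 in fibroblasts (SD, n = 3 each). The adult table lists fewer genes than the others, so the same share was taken over the 462 genes in all 4 tables. There it was 79.2% ± 9.42 in adult RBC, 34.0% ± 8.62 in embryonic RBC, 74.3% ± 4.81 in HD3 and 76.1% ± 3.41 in fibroblasts (SD, n = 3 each). Over that common set the embryonic samples lay below all others, and the adult samples overlapped with HD3 and fibroblasts. FPKM divides by length, so short genes weigh more in these sums than in reads. Of the reads on listed genes the 82 took 36.2% ± 8.73 in adult RBC and 19.3% ± 5.70 in embryonic RBC. They took 15.3% ± 3.59 in HD3 and 9.60% ± 1.19 in fibroblasts (SD, n = 3 each). By reads the lowest adult sample, at 26.1%, was close to the highest embryonic one, at 25.9%, and the embryonic mean was not the lowest. The choice required a level of at least 1 in both red cell types. It also left out 8 genes with a fibroblast mean below the embryonic mean, which can lower the embryonic share. These shares are therefore descriptions and were not tested.

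**Figure D2:**
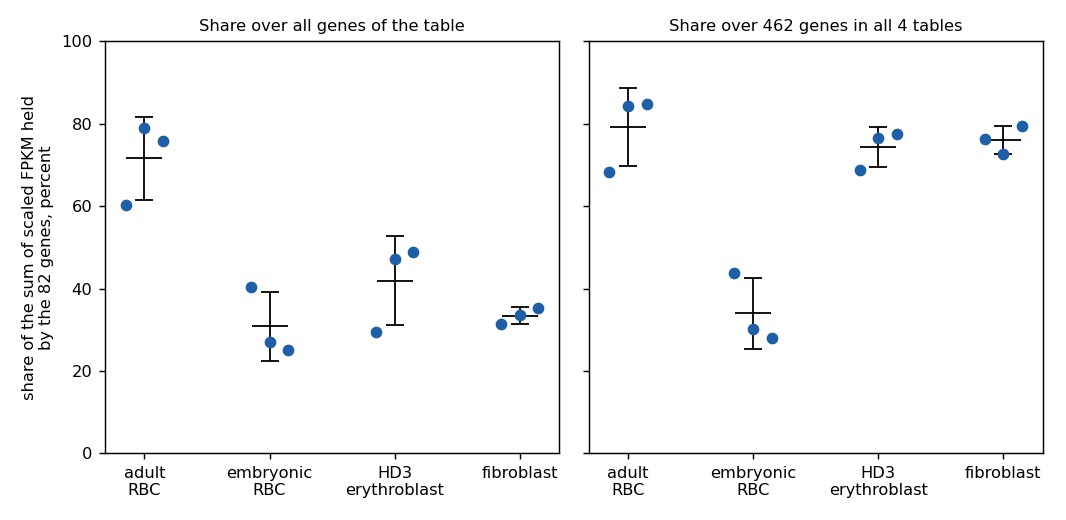
Share of the summed scaled FPKM held by the 82 genes, in percent, over all genes a table lists (left) and over the 462 genes in all 4 tables (right); points are replicates 1 to 3 from left to right, and the bar and whiskers are the mean and SD. On the left adult RBC stand highest at 71.6%, and on the right embryonic RBC stand lowest at 34.0%. The choice of the 82 left out genes with a higher mean in embryonic RBC than in fibroblasts.

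A single gene, ENSGALG00000017926 of 329 bp, carried much of the sum. Its level was 432, 1512 and 271 scaled FPKM in adult RBC, 5705, 2884 and 2593 in embryonic RBC, 11533, 36827 and 39362 in HD3 and 86956, 100082 and 92060 in fibroblasts. The groups were ordered without overlap, adult RBC lowest and fibroblasts highest. It made up 34.9%, 58.1% and 12.4% of the sum of the 82 genes in the adult replicates, and 76.8%, 75.5% and 73.9% in the embryonic ones. In HD3 it made up 41.6%, 59.7% and 59.9%, and in fibroblasts 56.1%, 52.0% and 51.2%. Its part was thus steady in embryonic RBC and fibroblasts. It was uneven in HD3, where replicate 1 was low, and more so in adult RBC, where replicate 3 was low. Without this gene the other 81 held 46.2% ± 17.8 of the sum in adult RBC, 7.51% ± 1.62 in embryonic RBC, 18.6% ± 1.24 in HD3 and 15.7% ± 1.79 in fibroblasts (SD, n = 3 each).

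Short genes were frequent among the 82, where a floor on FPKM asks for fewer reads from a short gene than from a long one. Lengths, recovered as whole numbers from the steps between FPKM values, ran from 83 to 329 bp in 33 genes, with a median of 161.0 bp, and from 527 to 8647 bp in 49, with a median of 1480 bp. No gene lay between 329 and 527 bp, and a boundary of 400 bp was put there after the lengths had been seen. Genes under 400 bp were 40.2% of the 82, against 27.7% of the 166 genes at or above 1 in adult RBC, 13.7% of the 371 in embryonic RBC, 5.57% of those in HD3 and 7.34% of all 13889. Among the short genes, 15 measured 100 to 150 bp, and the lengths of 132, 141, 143 and 273 bp were each held by a pair of genes. The files do not say what the short genes encode, or whether genes of like length are copies between which reads could be split, so the count of any one of them is uncertain.

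In each replicate of both red cell types the short genes had the higher median level. Their median level was 7.30 ± 2.80 scaled FPKM in adult RBC, 6.28 ± 2.52 in embryonic RBC, 50.9 ± 22.9 in HD3 and 169 ± 61.7 in fibroblasts (mean and SD of 3 replicate medians). The long genes had 1.78 ± 0.110 in adult RBC, 3.66 ± 0.877 in embryonic RBC, 45.8 ± 2.48 in HD3 and 187 ± 5.84 in fibroblasts. In each adult replicate the short median lay more than 2 times above the long one. In embryonic replicates 1 to 3 it was 9.18 against 2.68, 5.02 against 4.37 and 4.63 against 3.93. In HD3 it was lower in replicate 1, at 24.8 against 43.3. It was higher in HD3 replicates 2 and 3, at 67.5 against 48.2 and 60.5 against 45.8. Fibroblast medians of the 2 classes differed by less than the SD of the short class. Red cell levels were a floor of the choice, so these medians are a description. FPKM divides by length, so a higher level of the short genes is not a higher number of reads. For genes this short it can also depend on fragment sizes, which are not given.

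**Figure D3:**
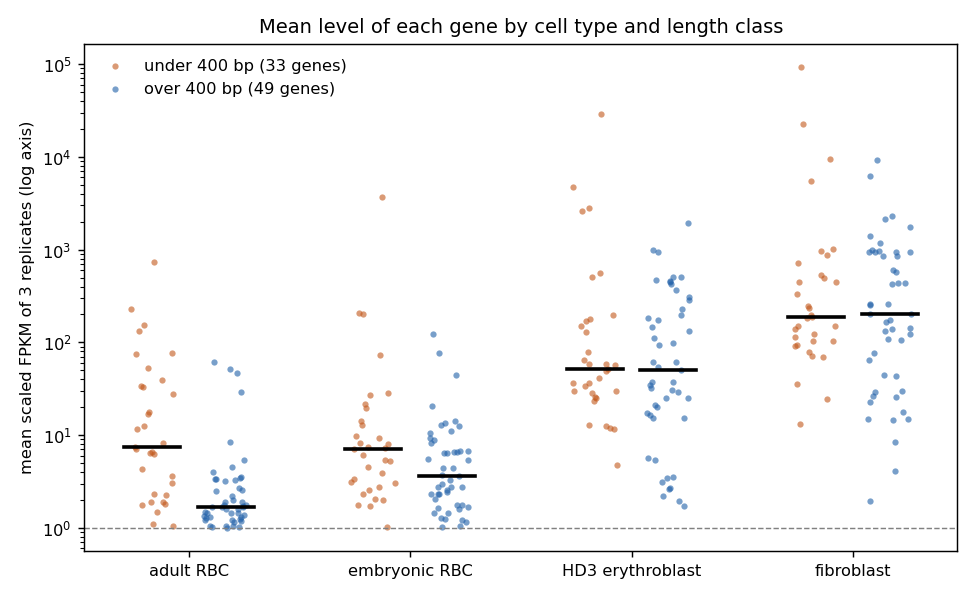
Mean scaled FPKM of each of the 82 genes (log axis) in adult RBC, embryonic RBC, HD3 and fibroblasts, with 33 genes under 400 bp in orange and 49 over 400 bp in blue; black bars are medians over genes and the dashed line marks the level of 1 used in the choice. The medians of the short and long genes are 7.47 and 1.69 in adult RBC, 7.14 and 3.62 in embryonic RBC, 51.9 and 50.9 in HD3, and 188 and 204 in fibroblasts.

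Replicates were further apart for the short genes. The median coefficient of variation over 3 replicates was 78.6% for short and 35.1% for long genes in adult RBC, 44.1% and 18.4% in embryonic RBC, 49.0% and 30.1% in HD3, and 41.2% and 31.0% in fibroblasts. Over all genes listed it was 40.3%, 23.3%, 25.1% and 24.0% in the same order of cell types. Other short genes outside the 82 also tended to peak in adult replicate 3, at 58.7% of 63 genes, against 20 of 33 among the 82. In embryonic replicate 1 the others peaked in 41.9% of 74 genes, against 32 of 33. In HD3 replicate 1 the others were lowest in 58.1% of 651 genes, against 31 of 33. In fibroblast replicate 3 the others peaked in 33.0% of 933 genes, against 19 of 33. In embryonic replicate 1, 34 of the 49 long genes had their lowest value, against 77.3% of 1198 other long genes. The part of depth or RNA quality in these splits was not tested.

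The first comparison asked how the 82 genes differ between red blood cells of the adult and of the embryo. A level of at least 1 in both was a condition of the choice. The direction of the difference was not a condition, but the floor bears on it. Of genes that met the other conditions, 124 stayed under 1 in adult RBC and 24 in embryonic RBC. The other genes tested needed only a mean of 1 over the 6 samples. With limma, 5 genes were higher and 19 lower in adult RBC, and 58 did not pass, where a call needs a Benjamini-Hochberg adjusted p under 0.05 together with a log2 fold change of 1 or more in size. Of all 195 genes tested in this pair, 5.13% were called higher and 48.7% lower, so the 6.10% of the 82 called higher is near the background and the 23.2% called lower is below it. The median log2 fold change was -0.53 over the 82 genes and -1.02 over all 195. The difference in share between the 82 and the other genes was not tested and nothing is read from it, since both red cell levels entered the choice.

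The short and the long class are given apart, with no test between them. Calls among all short or all long genes tested were not counted, so nothing is read from the calls per class. Of the 33 short genes, 21 had a higher mean in adult RBC, with a median ratio of 1.43, and limma called 3 higher and 4 lower. Of the 49 long genes, 11 had a higher mean in adult RBC, with a median ratio of 0.477, and limma called 2 higher and 15 lower. The 5 genes called higher were 132, 132, 133, 881 and 1201 bp long. Among the tested genes outside the 82, the median log2 fold change was -0.73 for 9 short and -1.39 for 104 long ones, against 0.08 for the short and -0.72 for the long genes of the 82. The genes outside did not have to reach 1 in both red cell types, so nothing is read from this difference.

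**Figure D4:**
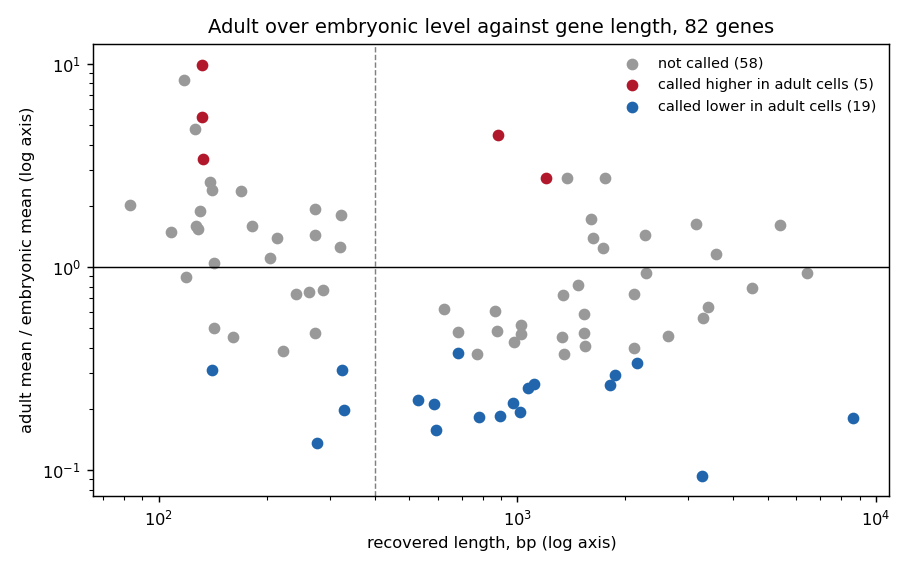
Ratio of the adult to the embryonic mean (log axis) against recovered length in bp (log axis) for the 82 genes; red points are the 5 genes called higher and blue points the 19 called lower in adult RBC by limma, grey points the 58 not called, and the dashed line marks 400 bp. The median ratio is 1.43 for genes left of the line and 0.477 for genes right of it.

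These directions rest on the cell-number scaling. With each sample centred on its median over the genes tested, 24 of the 82 were higher and 2 lower in adult RBC, while 21.0% and 12.8% of all 195 were called, and the median of all genes moved from -1.02 to 0.15. With equal sums over the genes tested 42 of the 82 were higher and 0 lower, while 31.3% and 4.10% of all 195 were called, and with equal sums over the 462 common genes 42 were higher and 0 lower, beside 31.3% and 5.13%. At an unadjusted limma p under 0.05, 0 of the 82 were lower with either equal sum. All 5 genes called higher on the deposited scale were called higher under each of these 3 scalings, and of the 19 called lower 2 remained so after median centring and 0 with equal sums. As shares of the sum over the 462 common genes, 79 of the 82 had a higher adult mean, with a median ratio of 4.13, against 333 of 380 other genes with 3.89. Single libraries also moved the number called higher, to 11 without adult replicate 2 and to 2 without embryonic replicate 2 or without embryonic replicate 3. The shares of all genes called in those fits are not given, so only the movement is described.

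The largest rises without overlap of replicates were in 2 genes of 132 bp each. ENSGALG00000017864 had 12.2, 4.76 and 35.8 scaled FPKM in adult RBC, against 2.68, 1.32 and 1.33 in embryonic RBC. Each adult sample lay above each embryonic one, with a log2 fold change of 2.38 (SE 0.64, limma adjusted p 0.0121). Its levels of 15.2, 41.3 and 32.7 in HD3 overlapped with the adult ones, and its fibroblast levels of 107, 76.7 and 239 lay above all of them. It took 0.0962% of the reads on listed genes in adult RBC, 0.00220% in embryonic RBC, 0.00229% in HD3 and 0.00190% in fibroblasts. Without adult replicate 3 its log2 fold change was 1.69, and without adult replicate 2 it was 3.02.

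ENSGALG00000017819 had 53.1, 45.7 and 134 scaled FPKM in adult RBC, against 19.0, 11.7 and 11.8 in embryonic RBC. The groups did not overlap, with a log2 fold change of 2.23 (SE 0.59, limma adjusted p 0.0116). In HD3 it had 42.9, 171 and 173 and in fibroblasts 613, 364 and 1156. HD3 replicate 1 lay below all adult samples and the other HD3 replicates above them, and the fibroblasts were highest. The call was lost without embryonic replicate 2 (adjusted p 0.0581) or replicate 3 (adjusted p 0.0609), at log2 fold changes of 2.12 and 2.13. The adjusted p ran from 3.23e-06 to 0.0609 over its 12 alternatives.

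The largest falls without overlap of replicates were in a long gene and in the most abundant short one. ENSGALG00000015917, of 3271 bp, had 1.85, 1.31 and 0.805 scaled FPKM in adult RBC, against 8.28, 18.0 and 15.9 in embryonic RBC. Every adult sample was below every embryonic one, with a log2 fold change of -2.66 (SE 0.36, limma adjusted p 3.71e-04). It reached 786, 1077 and 1121 in HD3, where it ranked 6 of 10303, and 1648, 4040 and 1221 in fibroblasts. Its mean in adult RBC was 0.00133 of that in HD3, the steepest step down from HD3 to adult cells among the 82. With equal sums over the genes tested its fold change was -0.70 on the log2 scale and did not pass (adjusted p 0.402).

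ENSGALG00000017926, whose values stand above, fell by 2.63 on the log2 scale (SE 0.67, limma adjusted p 0.00948) in adult RBC relative to embryonic RBC. Its call did not survive any of the other scalings. The log2 fold change was -1.47 after median centring (adjusted p 0.106), -0.06 with equal sums over the genes tested (adjusted p 0.955) and -0.12 with equal sums over the 462 common genes (adjusted p 0.911). Of all reads on listed genes it took on average 10.5% in adult RBC, 11.5% in embryonic RBC, 5.62% in HD3 and 3.13% in fibroblasts. Without adult replicate 2 the log2 fold change was -3.35.

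**Figure D5:**
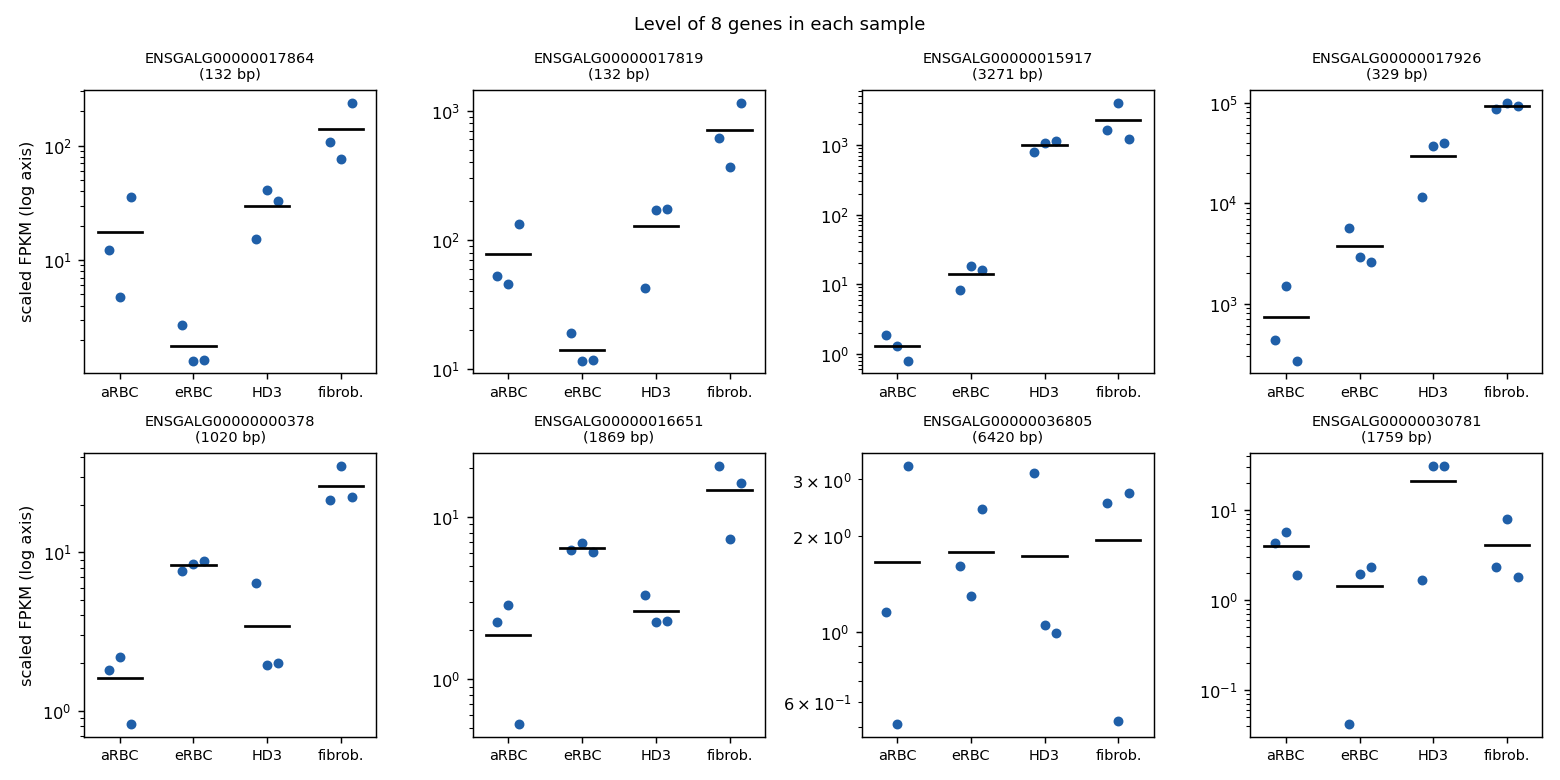
Scaled FPKM (log axis, a separate range per panel) of 8 of the 82 genes in adult RBC, embryonic RBC, HD3 and fibroblasts; points are replicates 1 to 3 from left to right and lines are means. The top row shows the 2 genes that rose and the 2 that fell most between adult and embryonic RBC. The bottom row shows 4 genes that departed from the usual order. Among them is ENSGALG00000036805, with means of 1.66 to 1.93 in all cell types on the cell-number scale.

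The comparisons with HD3 erythroblasts set the level of each gene beside that in a cultured line of red cell precursors. Stage, culture and cell line differ together here and cannot be told apart. Between embryonic RBC and HD3, limma called 2 of the 82 genes higher and 73 lower in embryonic RBC, with a median log2 fold change of -3.03. Of all 1268 genes tested in this pair, 0.946% were called higher and 93.4% lower, with a median of -2.66, so the 89.0% of the 82 called lower is near the background. The ratio of the embryonic to the HD3 mean had a median of 0.110 in the short and 0.0665 in the long genes. With median centring 14 were higher and 21 lower, beside 19.3% and 19.3% of all 1268. With equal sums over the genes tested 10 were higher and 41 lower, beside 3.71% and 55.7%, and with equal sums over the 462 common genes 6 were higher and 43 lower, beside 3.0% and 59.7%. The median of all 1268 genes moved to 0.06, -1.17 and -1.30 under those scalings. Embryonic levels entered the choice, so this contrast is only partly free of it.

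The 2 genes called higher in embryonic RBC than in HD3 are both long, and they are named here after their values were seen. ENSGALG00000000378, of 1020 bp, had 7.60, 8.39 and 8.81 scaled FPKM in embryonic RBC, against 6.40, 1.94 and 2.02 in HD3. The groups did not overlap, although HD3 replicate 1 came near, and the log2 fold change was 1.20 (SE 0.35, limma adjusted p 0.0115). It stood at 1.80, 2.18 and 0.829 in adult RBC and at 21.4, 35.1 and 22.4 in fibroblasts. ENSGALG00000016651, of 1869 bp, had 6.29, 6.88 and 6.06 in embryonic RBC, against 3.32, 2.24 and 2.28 in HD3. Again no sample overlapped, with a log2 fold change of 1.05 (SE 0.16, limma adjusted p 3.58e-04). It stood at 2.25, 2.87 and 0.530 in adult RBC and at 20.6, 7.29 and 16.2 in fibroblasts. Both dropped just under the minimum fold change without HD3 replicate 2, at 0.97 for each, or without HD3 replicate 3, at 0.99 for ENSGALG00000000378 and 0.98 for ENSGALG00000016651. Both were called higher under the 3 other scalings too.

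Between adult RBC and HD3, limma called 0 of the 82 genes higher and 63 lower in adult RBC, and 1 was higher at an unadjusted p under 0.05. Of all 673 genes tested, 0.297% were called higher and 87.7% lower, so the 76.8% of the 82 called lower is somewhat below the background share. Adult levels entered the choice, so this contrast is only partly free of it and nothing is read from that gap. The median log2 fold change was -3.26 over the 82 and -2.42 over the 673. The short genes had a median ratio of the adult to the HD3 mean of 0.171, with 23 of 33 called lower, and the long genes a median ratio of 0.0452, with 40 of 49 called lower. Other short genes tested had a median log2 fold change of -1.73 and other long ones -2.45, against -2.34 and -3.93 in the 82. With median centring 12 of the 82 were higher and 33 lower, beside 26.0% and 26.3% of all 673. With either equal sum 35 were higher, 18 short and 17 long, and 15 lower, 2 short and 13 long. The share of all 673 was then 27.2% higher, with 13.5% lower for sums over the genes tested and 12.9% for sums over the common genes. No such share was counted per class, so nothing is read from the calls of the short and the long genes. The median of all 673 genes was 0.21 after median centring and 0.63 or 0.67 with equal sums over the genes tested or the common genes.

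Between HD3 and fibroblasts, limma called 0 of the 82 genes higher and 59 lower in HD3, and 0 were higher at an unadjusted p under 0.05. Of all 9442 genes tested, 1.55% were called higher and 78.5% lower, which puts the 72.0% of the 82 near the background. The median log2 fold change was -1.94 over the 82 and -1.73 over the 9442. The classes had close values here, with median ratios of the HD3 to the fibroblast mean of 0.275 in the short and 0.249 in the long genes. With median centring 6 were higher and 4 lower, beside 16.3% and 12.9% of all 9442. Equal sums over the genes tested gave 9 higher and 4 lower, beside 11.2% and 16.2%, and with equal sums over the common genes 5 were higher and 3 lower, beside 6.88% and 14.3%. The median of all genes moved to 0.14, -0.12 and -0.26 under those scalings. Fibroblast levels entered the choice, so this contrast is only partly free of it.

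The contrasts of red blood cells with fibroblasts were part of the choice, and nothing is read from their counts. In embryonic RBC relative to fibroblasts 0 of the 82 were called higher and 79 lower by limma, where 0.920% and 96.9% of all 1304 genes tested were, and 0 were higher at an unadjusted p under 0.05. In adult RBC relative to fibroblasts 0 were called higher and 80 lower, where 0.265% and 96.2% of 756 were, and again 0 were higher at an unadjusted p under 0.05. The ratio of means spanned 7.66e-04 to 0.917 for embryonic RBC and 5.60e-04 to 0.979 for adult RBC. For embryonic RBC, 15 were higher and 30 lower after median centring, beside 24.5% and 22.5% of all genes tested. With equal sums over the genes tested 9 were higher and 42 lower, beside 7.90% and 63.7%, and over the common genes 9 were higher and 44 lower, beside 6.75% and 66.2%. For adult RBC, 12 were higher and 38 lower after median centring, beside 28.8% and 25.5%. Equal sums over the genes tested gave 29 higher and 13 lower, beside 36.8% and 14.7%, and over the common genes 29 were higher and 13 lower, beside 36.9% and 14.3%. The median of all genes moved from -4.38 to 0.10, -1.50 and -1.61 for embryonic RBC under these scalings, and from -4.14 to 0.16, 0.75 and 0.78 for adult RBC.

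Red cell samples appear in several of these contrasts, so the contrasts are not independent of each other. The median ratio of the means over the short genes was 1.43 for adult over embryonic RBC, 0.110 for embryonic RBC over HD3, 0.171 for adult RBC over HD3 and 0.275 for HD3 over fibroblasts. Over the long genes it was 0.477, 0.0665, 0.0452 and 0.249 in the same order.

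The genes at the top of the list were shared by the cell types. After ENSGALG00000017926, the next places in adult RBC were taken by genes of 205, 287 and 322 bp. The 205 bp gene had 190, 467 and 30.3 scaled FPKM in adult RBC, 378, 133 and 109 in embryonic RBC, 1213, 3753 and 3553 in HD3 and 4080, 6717 and 5836 in fibroblasts. The 287 bp gene had 26.0, 20.6 and 418 in adult RBC, 318, 131 and 154 in embryonic RBC, 2015, 6139 and 5962 in HD3 and 17060, 30182 and 20529 in fibroblasts. The 322 bp gene had 29.2, 53.6 and 315 in adult RBC, 112, 52.8 and 56.5 in embryonic RBC, 1514, 3048 and 3342 in HD3 and 9723, 11336 and 7162 in fibroblasts. The adult replicates differed most for these genes, and replicate 3 was the lowest for the first and the highest for the other 2, so adult and embryonic values overlapped in each.

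Adult replicate 3 also stood out in some long genes. In 5 of 49 it held over 66.7% of the summed adult value. A gene of 976 bp had 9.08, 2.98 and 143 scaled FPKM in adult RBC, against 242, 72.6 and 50.5 in embryonic RBC, and 3013, 929 and 1838 in HD3 and 5661, 7297 and 14890 in fibroblasts. A gene of 1621 bp had 11.9, 2.87 and 171 in adult RBC, against 72.1, 31.0 and 29.9 in embryonic RBC, and 1412, 551 and 877 in HD3 and 4937, 2703 and 11007 in fibroblasts. Both were highest in replicate 3 of adult RBC and of fibroblasts, and in replicate 1 of embryonic RBC and of HD3. Neither difference between adult and embryonic RBC passed.

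Other long genes were steady within adult RBC. A gene of 868 bp had 57.9, 46.4 and 36.3 scaled FPKM in adult RBC and 62.9, 79.3 and 90.1 in embryonic RBC, with 413, 243 and 277 in HD3 and 2183, 1144 and 1964 in fibroblasts. The adult samples were all below the embryonic ones, but the difference did not pass (log2 fold change -0.72, SE 0.51, limma adjusted p 0.232). The long genes called higher in adult RBC were of 881 and 1201 bp. The 881 bp gene had 6.12, 5.38 and 4.79 in adult RBC, against 1.44, 1.01 and 1.20 in embryonic RBC, a log2 fold change of 1.54 (SE 0.19, limma adjusted p 2.54e-04). It stood at 4.47, 2.25 and 2.59 in HD3 and 16.9, 8.98 and 19.4 in fibroblasts, so every adult sample lay above every HD3 sample, with a log2 fold change of 0.68 that stayed under the minimum. The 1201 bp gene had 34.7, 22.7 and 29.7 in adult RBC, against 11.6, 10.9 and 9.35 in embryonic RBC, without overlap, a log2 fold change of 1.35 (SE 0.42, limma adjusted p 0.0208). It had 134, 232 and 230 in HD3 and 1187, 759 and 914 in fibroblasts.

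A gene with close means in the 4 cell types and the 2 genes with a higher mean in HD3 than in fibroblasts are given last, chosen after their values were seen. ENSGALG00000036805, of 6420 bp, had 1.15, 0.513 and 3.31 scaled FPKM in adult RBC, 1.61, 1.29 and 2.42 in embryonic RBC, 3.14, 1.05 and 0.987 in HD3 and 2.54, 0.525 and 2.73 in fibroblasts. All 4 groups overlapped, and its means of 1.66, 1.77, 1.72 and 1.93 in that order differed by less than their SDs of 1.47, 0.583, 1.22 and 1.22. The closeness rests on the cell-number scaling. Of the reads on listed genes this gene took 0.442% in adult RBC, 0.108% in embryonic RBC, 0.00646% in HD3 and 0.00127% in fibroblasts. It stood in the lower part of the fibroblast list, at rank 10658 of 13451, and at rank 92 of 804 in adult RBC. ENSGALG00000030781, of 1759 bp, had 4.30, 5.75 and 1.90 in adult RBC, 0.0420, 1.96 and 2.35 in embryonic RBC, 1.67, 31.1 and 31.0 in HD3 and 2.32, 8.07 and 1.82 in fibroblasts. HD3 replicates 2 and 3 were above all other samples, and HD3 replicate 1 was below the fibroblasts. It was called lower in embryonic RBC than in HD3, with a log2 fold change of -2.68 (SE 0.98, limma adjusted p 0.0287), although HD3 replicate 1 overlapped with the embryonic samples. The other, of 1331 bp, had 57.2, 53.4 and 50.5 in HD3 against 39.8, 49.9 and 39.7 in fibroblasts, at a ratio of means of 1.24, and stood at 2.27, 1.76 and 1.99 in adult RBC and 3.67, 4.48 and 5.17 in embryonic RBC. Neither difference between HD3 and fibroblasts passed with limma.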

How the data were processed

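The authors deposited 4 tables, 1 per cell type, of FPKM values scaled to cell number, with 3 replicate columns each; the scaling factor and how cells were counted are not given in the sources used here. Per the submitters' processing notes, STAR 2.7.2b, featureCounts and the GRCg6a build were used. Per the labels' protocols, RNA came from TRIzol extraction and libraries from a stranded total RNA kit; fragment sizes are not given, and FPKM of a gene near or below fragment length depends on them. Every deposited mean was at least 0.3, so an unlisted gene is no measurement of 0. All 12 columns were matched to samples by description, and 0 were left unmatched.

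The 82 genes, the lists and the tests were chosen with earlier results of these data known. Each pair of cell types was fitted with limma 3.58.1 (R 4.3.3) on log2(FPKM + 1), with a mean-variance trend, on the 6 samples of the pair and all genes that both tables list and whose mean over them reached 1; all 82 genes passed this filter in each pair. Between the red cell types the rule itself ensures this, and in the pairs with fibroblasts too, whereas it sets no level in HD3. Fold changes are on that scale, which understates those of low genes. P-values are two-sided and Benjamini-Hochberg adjusted over all genes tested.

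Within a sample, FPKM values are whole reads times a constant over the gene length, so lengths and reads were recovered from the steps between values, within 0.05 of a whole read, for 13889 of 13889 genes; a length that shares a divisor with its reads can come out too short. The 3 fibroblast library totals came out whole (9069947, 24014646 and 19380182), as a factor of 1 would give. The total of replicate 1 was searched over whole numbers only, and other factors were not tested. Lengths were chosen to make the reads whole, so the match to whole reads is no check of them. Scripts were tested on simulated data, where 97.3% of the lengths of all 13889 genes were recovered, and 100% of those of the 82. The simulation took the lengths recovered here as true, so it cannot show a length that came out wrong in these data.

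The RefSeq gene table (25635 genes) carried an Ensembl ID for 0 genes, so gene names, sequences, positions, marker lists and pathway lists were not used. With no names, the rule named the 2 genes with the largest rise and the 2 with the largest fall between adult and embryonic RBC among those called without overlap of replicates; other IDs were chosen after their values were seen. Replicate numbers were tested as pairs. The labels give no pairing, and all calls in the comparisons above were made without a replicate block. Deviations from the group means correlated between same-numbered adult RBC and fibroblast samples at 0.153, 0.215 and 0.333, which does not establish a pairing. With the replicate block 0 of the 82 genes were higher and 80 lower in that pair, as without it, beside 0.265% and 96.4% of all 756 genes tested. Alternatives were the pseudocount, the filter, 3 other scalings, the block, each replicate left out and other thresholds of the rule.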

Additional observations from a re-analysis of the deposited data

How the results depend on the processing

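Scaling mattered most. Genes called higher and lower were 24 and 2 in adult against embryonic RBC after median centring, and 42 and 0 with either equal sum; with a pseudocount of 0.1 they were 8 and 29, beside 9.74% and 61.5% of all 195 genes. The shares of all genes called under the scalings are given with each comparison. In embryonic RBC against HD3 they were 14 and 21, 10 and 41 (equal sums over tested genes) and 6 and 43 (over common genes); in adult RBC against HD3 12 and 33, 35 and 15, 35 and 15; in HD3 against fibroblasts 6 and 4, 9 and 4, 5 and 3; in embryonic RBC against fibroblasts 15 and 30, 9 and 42, 9 and 44; in adult RBC against fibroblasts 12 and 38, 29 and 13, 29 and 13. These scalings set samples to a common median or sum by construction. With equal sums over the genes tested the median log2 fold change of the 82 turned from -0.53 to 1.36 in adult against embryonic RBC, from -3.26 to 0.72 in adult RBC against HD3, from -1.94 to 0.03 in HD3 against fibroblasts and from -5.17 to 0.81 in adult RBC against fibroblasts.

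With a replicate left out, genes called higher and lower ranged from 2 to 11 and 17 to 27 in adult against embryonic RBC, from 0 to 2 and 70 to 71 in embryonic RBC against HD3, 0 and 63 to 69 in adult RBC against HD3, and 0 to 1 and 53 to 57 in HD3 against fibroblasts, where the 1 came without HD3 replicate 1. They ranged from 79 to 80 lower in embryonic and 78 to 80 lower in adult RBC against fibroblasts, with 0 higher. The shares of all genes called with a replicate left out are not given, so only the movement of the counts is described. The rule found 77 to 85 genes, and 218, 39 and 45 with a minimum of 0.5, of 2, or of 1 in every replicate. The share of the sum ranged from 68.0% to 77.4% in adult RBC, 26.1% to 33.8% in embryonic RBC, 38.4% to 48.1% in HD3 and 32.4% to 34.4% in fibroblasts, and the median level from 2.17 to 2.35, 4.41 to 5.10, 44.5 to 58.7 and 177 to 207. Over the 462 common genes the share was 74.3% in HD3 and 76.1% in fibroblasts; without the 10 highest genes of each sample it was 39.6% in adult RBC, 32.2% in embryonic RBC, 10.4% in HD3 and 8.02% in fibroblasts, so the embryonic mean then lay above those of HD3 and fibroblasts in place of below them. The causes were not tested.

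With the replicate block, higher and lower calls were 6 and 20, 2 and 69, 0 and 66, 1 and 60 and 0 and 80 in the first 5 comparisons in the order above. The shares of all genes called were 6.15% and 49.2%, 0.946% and 92.9%, 0.297% and 88.3%, 1.59% and 78.7%, and 0.920% and 97.0%. The labels do not pair the samples by number. Outside adult RBC against fibroblasts, same-numbered correlations ran from -0.443 to 0.208 in adult against embryonic RBC and from -0.256 to 0.111 in the other 4. In each of these 5 at least 1 sample correlated better with another number. Of 356 alternative values, 292 kept a fold change's direction and call, a count within 1.5 times, or a level or share within its SD, 53 moved further and 11 lost a call. A level averaged without 1 replicate rarely leaves its SD even where it moves by over 1.5 times, so such cases say little. Of the fold changes of the 6 genes tested by name, 0 reversed. Depth limits most the gene with 11 reads in HD3 replicate 1, the lowest of the 82 in any library.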
